A study of Rattus norvegicus with 50 samples.

Results

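The cytosolic and mitochondrial heat shock genes described here are Hspb1, Hsph1, Dnajb1, Bag3, Hspd1 and Hspe1. They were chosen by name from a list of 8 symbols, each required to stand alone on its probe set, and make up 6 of the 14217 genes measured. The other two, Hspa8 and Hsp90aa1, were present only on probe sets that also carry the symbol of a second gene, so no level is given for them. The animals were 50 female Brown Norway rats (Bn/Crl, MHC haplotype RT1n) aged 9 to 11 weeks, in 17 groups of 3, or 2 for galactosamine at 48 h. Liver RNA of each rat was read on 1 expression array. Galactosamine rats had a single intraperitoneal dose of 750 mg/kg and were sampled 3 h, 24 h, 48 h and 8 d later. Nevirapine rats were dosed by mouth, first with 150, then with 100 and later with 75 mg/kg, and were sampled 3 h, 24 h and 48 h after the start and at 15 d. Combination rats had nevirapine on the days before the same galactosamine dose and throughout the rest of the course, with sampling at 3 h, 24 h, 48 h and 8 d after galactosamine, the last of these being a day 15 liver. Vehicle rats were sham dosed and sampled at 3 h, 24 h, 48 h, 8 d and 15 d. Livers came 2 h after the last oral dose, except that the 3 h groups were taken 5 h after it and the nevirapine 3 h group 3 h after it. The study examined the 8 d over which the 2 drugs together led to fibrosis while neither did so alone. Galactosamine depletes uridine nucleotides in hepatocytes, and nevirapine is an antiretroviral drug.

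Heat shock proteins are chaperones that keep other proteins folded or help to refold them, and most of their genes can be raised by heat shock factor 1 (HSF1), which binds repeats of the letters GAA in their promoters. In the cytosol Hsp70 proteins do the central work: Dnajb1 is a J-domain protein that brings them substrates and starts their ATP hydrolysis, while Hsph1 (Hsp110) and Bag3 exchange their nucleotide, Bag3 also linking them to autophagy. Hspb1 (Hsp27) is a small heat shock protein that holds unfolding proteins without using ATP. Hspd1 (Hsp60) and its lid Hspe1 (Hsp10) form the chaperonin of the mitochondrial matrix.

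The promoters of all 6 genes, from 250 bases before to 50 bases after the RefSeq start site (build GRCr8), held at least 1 pair of inverted GAA units, written GAANNTTC or TTCNNGAA. Each of these motifs is its own reverse complement, so 1 search covers both strands, and matches that overlapped were counted separately. Of all 33469 promoter windows of the same length, 15.85% held either motif, 2.28% held 2 or more matches and 0.37% held 3 or more. Hsph1, Hspd1 and Hspe1 held 3 each, Hspb1 and Dnajb1 held 2 each and Bag3 held 1. Windows with 2 or more matches are shown because these are the letters that the family is known for. The Hspd1 window, which shares 211 bases with that of Hspe1, is not printed. Capitals mark the matches, and each sequence runs 5′ to 3′ on the strand of its gene. Positions below count from the first transcribed base as 0.
Hspb1 (chr12:26432252-26432551, minus strand): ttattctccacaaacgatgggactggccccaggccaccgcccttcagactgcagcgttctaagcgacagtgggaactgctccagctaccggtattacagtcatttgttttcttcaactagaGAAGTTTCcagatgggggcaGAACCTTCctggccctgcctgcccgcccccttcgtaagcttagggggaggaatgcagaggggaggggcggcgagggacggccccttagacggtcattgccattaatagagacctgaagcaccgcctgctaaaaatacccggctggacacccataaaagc
Hsph1 (chr12:10427118-10427417, plus strand): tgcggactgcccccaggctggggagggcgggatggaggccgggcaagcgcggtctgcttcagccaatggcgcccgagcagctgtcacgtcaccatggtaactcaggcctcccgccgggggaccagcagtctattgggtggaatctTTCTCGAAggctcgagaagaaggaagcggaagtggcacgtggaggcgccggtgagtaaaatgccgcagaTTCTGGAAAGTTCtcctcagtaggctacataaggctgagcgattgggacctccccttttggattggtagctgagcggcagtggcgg
Dnajb1 (chr19:41431092-41431391, minus strand): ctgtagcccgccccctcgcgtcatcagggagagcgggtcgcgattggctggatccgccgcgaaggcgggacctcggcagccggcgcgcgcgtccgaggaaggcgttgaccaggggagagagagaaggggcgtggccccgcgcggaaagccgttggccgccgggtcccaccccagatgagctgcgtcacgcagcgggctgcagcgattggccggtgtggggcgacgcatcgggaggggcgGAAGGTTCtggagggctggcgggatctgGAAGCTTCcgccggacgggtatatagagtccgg
Hspe1 (chr9:64084077-64084376, plus strand): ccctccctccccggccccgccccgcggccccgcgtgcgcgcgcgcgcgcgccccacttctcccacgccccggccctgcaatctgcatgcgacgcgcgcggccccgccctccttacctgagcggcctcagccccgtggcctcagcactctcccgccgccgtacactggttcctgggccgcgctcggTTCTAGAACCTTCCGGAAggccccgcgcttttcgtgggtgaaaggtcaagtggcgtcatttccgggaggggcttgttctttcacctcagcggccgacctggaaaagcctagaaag
Hspd1 lies head to head with Hspe1 on the opposite strand, with 290 bases between the 2 start sites. Its own window (chr9:64083988-64084287, minus strand) shares 211 bases with that of Hspe1. The same 18-base stretch of overlapping matches therefore belongs to both genes. It reads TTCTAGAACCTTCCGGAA on the Hspe1 strand, at -65 to -48, and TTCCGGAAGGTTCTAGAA on the Hspd1 strand, at -242 to -225. In Dnajb1 the matches lay at -11 to -4 and, after the start site, at 17 to 24. In Bag3, whose window is chr1:192533210-192533509 on the plus strand, the single match lay at -132 to -125, and in Hspb1 the matches lay at -129 to -122 and -109 to -102. A match describes the letters only, since no binding was measured in these livers.

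Array medians lay between 4.954 and 5.093 on the log2 scale, and the number of arrays, not depth, limits the precision. For Gapdh the 3′ probe set exceeded the 5′ one by 0.0089 to 0.86, a difference that grows as RNA degrades. The arrays of rat31 (nevirapine 3 h), rat63 (combination 3 h) and rat70 (combination 48 h) were left out together in 1 alternative. Of these, rat63 had the lowest mean correlation with its group of all arrays (0.9789), and rat31 the lowest in its group (0.9882). By this measure rat70 did not stand apart, with 0.9864 beside 0.9881 in rat71 and 0.9861 in rat72. Calls that ended without these arrays are given beside the results. All 5 measured hepatocyte markers were far above background in every group, with a summed level between 15.75 and 16.01, while the 3 skeletal muscle markers had a mean under the background level of 4.37 in every group. Values below are log2 signals of 1 probe set per gene, so levels of different genes are not set against each other. In bulk liver, fewer cells of a type and less RNA per cell cannot be told apart.

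Across the 17 groups the lowest and highest levels fell at different times. Dnajb1 and Bag3 were lowest 3 h after galactosamine and highest 24 h after it: the Dnajb1 mean was 7.39 at 3 h and 9.81 at 24 h, and that of Bag3 was 6.27 and 8.69, a range of 2.43 for each gene. Hspb1 had its highest group mean, 9.79, at 3 h of galactosamine and its lowest, 6.36, at 24 h, a range of 3.42. The mitochondrial pair and Hsph1 were lowest in vehicle livers at 48 h. Hspd1 group means spanned 11.82 to 12.38, those of Hspe1 11.38 to 12.31 and those of Hsph1 8.68 to 10.39. Over the 17 group means Dnajb1 and Bag3 had a Pearson r of 0.96 and Hspd1 and Hspe1 one of 0.69, and Hspb1 had -0.28 with Dnajb1 and -0.31 with Bag3. Hsph1 had 0.81 with Hspe1, 0.58 with Hspd1 and 0.75 with Hspb1, so the r values do not part Hsph1 from the mitochondrial pair. For Hspb1 they were mixed, with 0.68 for Hspe1 but 0.28 for Hspd1. Over the 50 rats, each set against its group mean, Hspb1 had 0.38 with Dnajb1 and 0.45 with Bag3, the opposite sign to the group means. All these r values come from one table of arrays, and no test goes with them. Hspb1 was also among the genes that varied most between rats of the same group: its within-group SD of 0.603 lay at percentile 99.5 of all genes, whereas that of Hspd1, 0.108, lay at percentile 4.7. When the 17 group means were put in order, the rats of neighbouring groups overlapped in 16 of 16 steps for Hspb1. They overlapped in 15 of 16 for Dnajb1, Hspd1 and Hspe1, and in 14 of 16 for Hsph1 and Bag3. Most neighbouring steps therefore lay within the spread between rats. The steps without overlap were not always the widest: Bag3 rats parted between means of 8.69 and 8.55 but overlapped between 7.66 and 6.99.

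**Figure D1:**
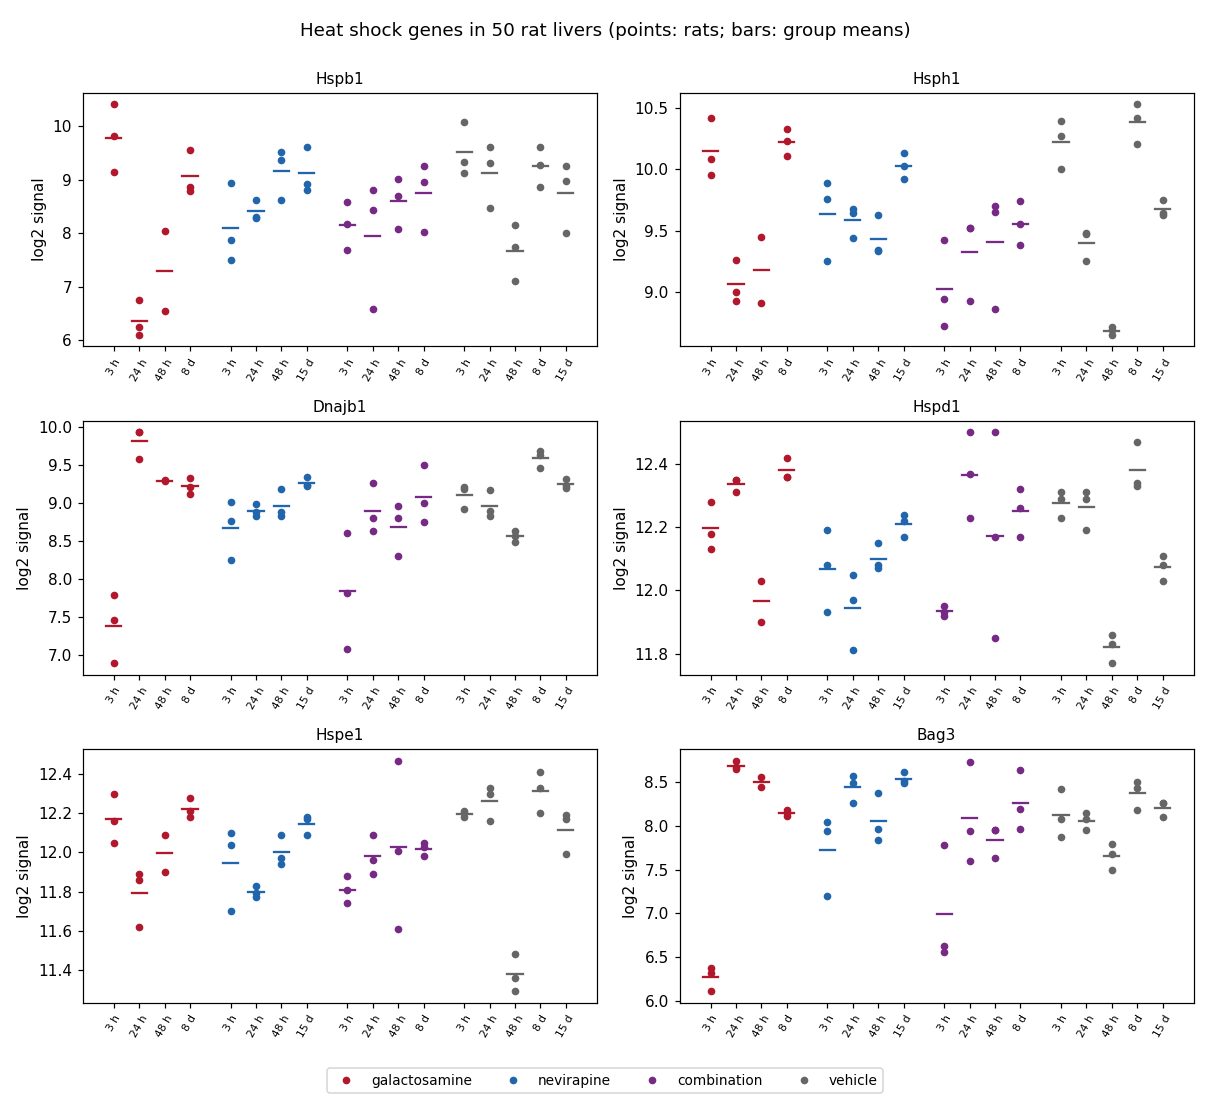
Log2 signal of each gene (vertical axes, own scale per gene) in each of 50 rats (points) by group, with bars at group means; time runs left to right within each treatment. Dnajb1 and Bag3 sit at 7.39 and 6.27 on average at 3 h of galactosamine and at 9.81 and 8.69 at 24 h, while Hspb1 is at 9.79 and 6.36 at these times.

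Galactosamine alone lowered the Hsp70 helpers Dnajb1 and Bag3 at 3 h, by 3.3-fold and 3.62-fold, and left no called change in the other 4 genes. Bag3 signals were 6.32, 6.37 and 6.11 in galactosamine rats at 3 h, against 8.42, 8.08 and 7.88 in vehicle rats. Dnajb1 signals were 7.47, 7.79 and 6.9 in galactosamine rats, against 9.21, 9.19 and 8.93 in vehicle rats. For both genes every galactosamine rat lay below every vehicle rat, by more than the spread within either group. The log2 change was -1.86 ± 0.23 for Bag3 (SE of the fit, n = 3 per group, limma adjusted p = 4.67e-08) and -1.72 ± 0.23 for Dnajb1 (limma adjusted p = 2.15e-07). A second, dimmer Dnajb1 probe set changed by -0.44, and the mean of both by -1.08 (limma adjusted p = 2.61e-05). Changes of the other genes lay between -0.08 (Hspd1) and 0.27 (Hspb1). In this comparison 32.9% of all genes were called in either direction and 18% were called lower. The 2 of 6 called here, both lower, is close to the first share and above the second. The count was not tested against either share. Both falls kept their call under every alternative and without each rat in turn.

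At 24 h the same 2 genes were above vehicle and Hspb1 was 6.78-fold below it. Hspb1 signals were 6.1, 6.24 and 6.75 in galactosamine rats at 24 h, against 8.47, 9.31 and 9.61 in vehicle rats. The groups were far apart, and the log2 change was -2.76 ± 0.46 (n = 3 per group, limma adjusted p = 2.2e-06). Dnajb1 reached 9.93, 9.58 and 9.93 in galactosamine rats, against 8.83, 8.9 and 9.17 in vehicle rats, a change of 0.84 ± 0.23 (limma adjusted p = 0.00198). Bag3 reached 8.65, 8.75 and 8.68 in galactosamine rats, against 7.96, 8.08 and 8.15 in vehicle rats, a change of 0.63 ± 0.23 (limma adjusted p = 0.0185). Neither pair of groups overlapped, and the smaller Bag3 rise lost its call without rat4 (adjusted p = 0.0598) and under cyclic loess normalization (adjusted p = 0.0642).

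Of the mitochondrial pair only Hspe1 was called at 24 h. Hspe1 was called lower, with 11.62, 11.89 and 11.86 in galactosamine rats, against 12.33, 12.3 and 12.16 in vehicle rats (-0.47 ± 0.12, limma adjusted p = 0.000905). Hspd1, its partner, had 12.35, 12.35 and 12.31 in galactosamine rats, against 12.31, 12.19 and 12.29 in vehicle rats (0.07 ± 0.1, limma adjusted p = 0.541). The Hspe1 fall was not seen under cyclic loess normalization (limma adjusted p = 0.984), nor called with all 15 vehicle rats as control (-0.27, adjusted p = 0.138). Hspd1 was called higher under cyclic loess normalization, at 0.56 (adjusted p = 8.25e-06). Hsph1 differed by -0.34 ± 0.19 (adjusted p = 0.119), but with all 15 vehicle rats as control it was called lower, at -0.61 (adjusted p = 0.0445). In all, 2 genes rose and 2 fell, where 58.8% of all genes were called (30.2% higher and 28.5% lower).

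The change of the galactosamine effect between 3 h and 24 h was tested directly, each time against its own vehicle group. It was 2.57 ± 0.33 for Dnajb1 (limma adjusted p = 1.68e-08; 1.2 in its second probe set and 1.88 in the mean of both), 2.48 ± 0.33 for Bag3 (adjusted p = 2.93e-08) and -3.04 ± 0.65 for Hspb1 (adjusted p = 0.00013). Hspe1 also passed, at -0.45 ± 0.17 (adjusted p = 0.0259), but stood at 0.07 under cyclic loess normalization and lost its call without rat4, rat17 or rat22. In this test 51.9% of all genes were called (27.6% higher and 24.3% lower). Leukocyte markers also moved with galactosamine: the summed level of the 9 was 11.23 to 11.39 at 3 h, against 10.04 to 10.92 in vehicle, and 11.12 to 11.36 at 24 h, against 10.39 to 10.52 in vehicle. Of the 9, 1 to 3 had a group mean under background in these groups. Endothelial markers, 4 measured, summed to 11.2 to 11.33 at 3 h, against 10.2 to 10.59 in vehicle, with 3 called higher, and to 9.89 to 10.49 at 24 h, against 10.19 to 10.46 in vehicle, with 2 called lower. Their part in the results was not tested.

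**Figure D2:**
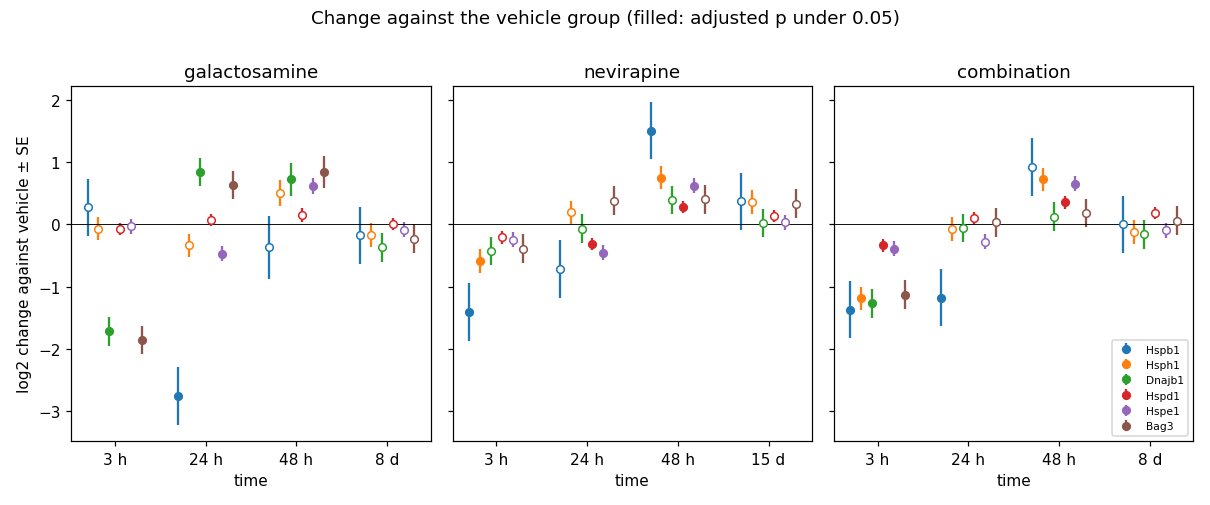
Log2 change of each gene against the vehicle group of the same time (vertical axis, ± SE of the fit) for galactosamine, nevirapine and the combination. The combination at 8 d is set against vehicle at 15 d. Nevirapine rats at 3 h were taken 3 h after the oral dose and their vehicle rats 5 h after it. Filled points have an adjusted p under 0.05. Galactosamine gives -1.86 for Bag3 at 3 h and -2.76 for Hspb1 at 24 h, whereas all 6 genes are filled and below 0 at 3 h of the combination.

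After the combination, all 6 genes were called lower than in vehicle livers at 3 h. For each of them every combination rat lay below every vehicle rat, but how many of all genes separate in this way was not counted. The largest falls were those of Hspb1 (2.58-fold), Dnajb1 (2.41-fold), Hsph1 (2.28-fold) and Bag3 (2.19-fold), while Hspe1 (1.31-fold) and Hspd1 (1.27-fold) fell less. In this comparison 32.5% of all genes were called and 17.4% were called lower. Hsph1 signals were 8.94, 8.72 and 9.42 in combination rats, against 10.39, 10.27 and 10 in vehicle rats (-1.19 ± 0.19, n = 3 per group, limma adjusted p = 4.79e-06). Hsph1 had the smallest adjusted p of the 6, and its lowest vehicle rat stood well above its highest combination rat.

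Dnajb1 signals were 7.82, 7.09 and 8.61 in combination rats at 3 h, against 9.21, 9.19 and 8.93 in vehicle rats (-1.27 ± 0.23, limma adjusted p = 5.64e-05). Bag3 signals were 6.63, 6.56 and 7.78 in combination rats, against 8.42, 8.08 and 7.88 in vehicle rats (-1.13 ± 0.23, adjusted p = 0.000217). The second Dnajb1 probe set changed by -0.45. In both genes the third combination rat, rat63, stood close to vehicle and the other two far below it. Hspb1 signals were 7.68, 8.59 and 8.17 in combination rats, against 10.08, 9.34 and 9.12 in vehicle rats (-1.37 ± 0.46, adjusted p = 0.02). Hspd1 was within 11.92 and 11.95 in the combination rats, against 12.23 to 12.31 in vehicle rats (-0.34 ± 0.1, adjusted p = 0.00532). Hspe1 was within 11.74 and 11.88, against 12.18 to 12.21 in vehicle (-0.39 ± 0.12, adjusted p = 0.0116).

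The calls of Dnajb1 and Bag3 held against all 15 vehicle rats, whereas those of Hsph1 (-0.64, adjusted p = 0.06), Hspb1 (-0.72, adjusted p = 0.194), Hspd1 (-0.23, adjusted p = 0.0843) and Hspe1 (-0.24, adjusted p = 0.249) did not. Hspb1 also lost its call without rat1 or rat61, Hspe1 without rat62, and Hspd1 where the fit held only these groups (adjusted p = 0.0631). Leukocyte markers were higher in these livers, with a summed level of 12.08 to 12.18 in combination rats at 3 h, against 10.04 to 10.92 in vehicle rats, and 8 of 9 markers called higher. Endothelial markers were at 10.86 to 11.26, against 10.2 to 10.59, with 3 of 4 called higher, and hepatocyte markers at 15.76 to 15.8, against 15.87 to 15.91, with 2 of 5 called lower. Their part in the result was not tested.

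By 24 h of the combination 5 of the 6 genes carried no call. Dnajb1, Bag3, Hsph1 and Hspd1 differed from vehicle by -0.08 to 0.1, and Hspe1 by -0.28 ± 0.12 (limma adjusted p = 0.0664). Hspb1 was called lower at -1.18 ± 0.46 (adjusted p = 0.0395), but its rats overlapped, with 8.44, 6.58 and 8.81 in combination rats, against 8.47, 9.31 and 9.61 in vehicle rats. The fall rested on rat69: without it the change was -0.5, and the call also ended without rat5 or rat6. In this comparison 36.7% of all genes were called and 16% were called lower. Leukocyte markers had a summed level of 11.92 to 12.4 in combination rats, against 10.39 to 10.52 in vehicle rats, with 6 of 9 called higher, and their part was not tested. The change of the combination effect between 3 h and 24 h was called for Dnajb1 (1.2 ± 0.33, limma adjusted p = 0.00463), Bag3 (1.16 ± 0.33, adjusted p = 0.00587), Hsph1 (1.12 ± 0.26, adjusted p = 0.00117) and Hspd1 (0.45 ± 0.14, adjusted p = 0.0103), where 28.7% of all genes were called and 16.1% were called higher. With only these groups in the fit, the calls of Dnajb1 (adjusted p = 0.0626) and Bag3 (adjusted p = 0.0984) were lost.

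The combination against galactosamine alone asks what nevirapine dosing adds to the same injection. At 3 h it showed lower Hspb1, by 3.12-fold, and lower Hsph1, by 2.17-fold, in combination livers. Hspb1 had 7.68, 8.59 and 8.17 in combination rats, against 9.81, 10.41 and 9.14 in galactosamine rats (-1.64 ± 0.46, limma adjusted p = 0.0102). Hsph1 had 8.94, 8.72 and 9.42 in combination rats, against 9.95, 10.42 and 10.08 in galactosamine rats (-1.12 ± 0.19, adjusted p = 3.54e-05). Neither gene's groups overlapped, and the Hsph1 difference kept its call under every alternative and without each rat. The Hspb1 difference lost it without rat17 or rat61.

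Hspe1 was lower by -0.37 ± 0.12 (limma adjusted p = 0.0299) and Hspd1 by -0.26 ± 0.1, with an adjusted p just under the threshold at 3 h. Both small differences were lost under cyclic loess normalization (adjusted p = 0.0793 and 0.188), Hspd1 also without any 1 of the 6 rats, and Hspe1 without rat17, rat18, rat62 or rat63. Bag3 was higher in combination rats by 0.72 ± 0.23 (adjusted p = 0.025), but only by 0.32 without rat63, and it was not called without rat18 either. Dnajb1 differed by 0.46 ± 0.23 (adjusted p = 0.176), and its second probe set by -0.01. Over the 50 rats the 2 Dnajb1 probe sets had an r of 0.742. Their changes had the same sign in 16 of 22 comparisons. Of these 6 genes 1 was higher and 4 were lower, where 17.7% of all genes were called (10.6% higher and 7.06% lower). With only these groups in the fit, Bag3, Hspd1 and Hspe1 were not called (adjusted p = 0.214, 0.216 and 0.129).

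At 24 h combination livers had less Dnajb1 and Bag3 and more Hspb1 than galactosamine livers. Dnajb1 was 1.88-fold lower in combination livers, with 8.8, 8.64 and 9.27, against 9.93, 9.58 and 9.93 in galactosamine livers (-0.91 ± 0.23, limma adjusted p = 0.00176). Bag3 was 1.52-fold lower, with 7.94, 7.6 and 8.74, against 8.65, 8.75 and 8.68 (-0.6 ± 0.23, adjusted p = 0.0363). Hspb1 was 2.99-fold higher, with 8.44, 6.58 and 8.81, against 6.1, 6.24 and 6.75 (1.58 ± 0.46, adjusted p = 0.00575). The Dnajb1 groups did not overlap, and its call held in every alternative and without each rat. The Bag3 and Hspb1 groups overlapped, in each case through 1 combination rat: rat79 for Bag3, without which the difference was -0.93, and rat69 for Hspb1, without which it was 2.26. Bag3 lost its call without rat69, rat67, rat22, rat23 or rat24, being at -0.36 without rat69, and Hspb1 lost it without rat79. With only these groups in the fit neither was called (adjusted p = 0.161 for Bag3 and 0.0786 for Hspb1). The second Dnajb1 probe set changed by -0.44. Here 37.8% of all genes were called (16.2% higher and 21.6% lower). At 48 h Bag3 alone was called, at -0.66 ± 0.26 (adjusted p = 0.0497), and it lost the call without any 1 of the 5 rats, where 29.3% of all genes were called and 17.1% were called lower.

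**Figure D3:**
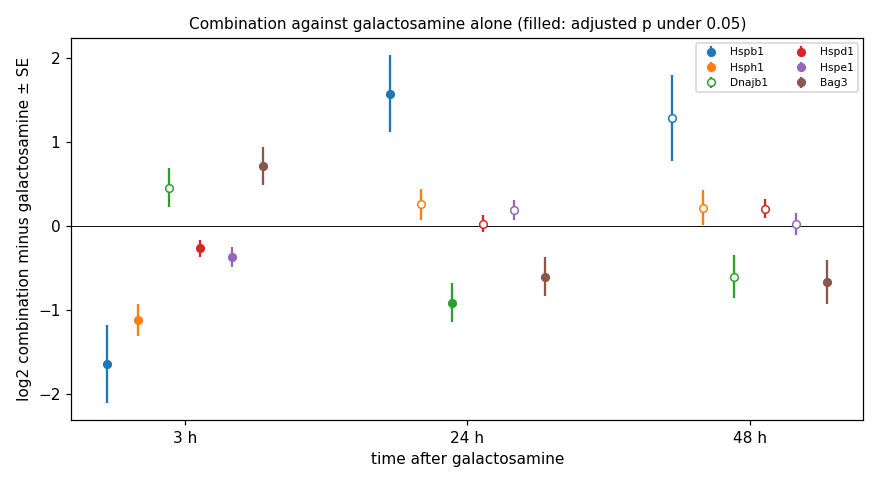
Combination minus galactosamine (vertical axis, log2 ± SE of the fit) for each gene at 3 h, 24 h and 48 h after galactosamine (horizontal axis); filled points have an adjusted p under 0.05. Hspb1 is at -1.64 at 3 h and 1.58 at 24 h, while Dnajb1 is at 0.46 and -0.91.

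Nevirapine alone was sampled early, after 1 to 3 doses, so these times do not match the dosing days of the combination. At 3 h nevirapine rats were taken 3 h after the oral dose and their vehicle rats 5 h after it. In that comparison treatment and hours since dosing cannot be told apart. At 3 h Hspb1 was 2.66-fold lower, with 7.88, 8.93 and 7.5 in nevirapine rats, against 10.08, 9.34 and 9.12 in vehicle rats (-1.41 ± 0.46, limma adjusted p = 0.0328). Hsph1 was 1.5-fold lower, with 9.25, 9.89 and 9.76 in nevirapine rats, against 10.39, 10.27 and 10 in vehicle rats (-0.59 ± 0.19, adjusted p = 0.0282). The groups did not overlap in either gene, and 15.1% of all genes were called, 7.48% lower. Both calls were lost against all 15 vehicle rats (Hspb1 -0.76, Hsph1 -0.04), where only these groups were fitted, and without rat1, rat2 or rat31, that of Hspb1 also without rat33. Vehicle rats at 3 h were themselves 1.77-fold above vehicle rats at 24 h in Hsph1 (0.82 ± 0.19, adjusted p = 0.0163), the only one of the 6 called there, where 1.19% of all genes were called and 0.197% were called higher. That vehicle call ended without rat1, rat2 or rat4.

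At 24 h of nevirapine the 2 mitochondrial genes were lower, Hspe1 by 1.38-fold and Hspd1 by 1.25-fold, and 11.2% of all genes were called, 6.63% lower. Hspe1 had 11.83, 11.77 and 11.79 in nevirapine rats, against 12.33, 12.3 and 12.16 in vehicle rats (-0.46 ± 0.12, limma adjusted p = 0.00832). Hspd1 had 12.05, 11.81 and 11.97 in nevirapine rats, against 12.31, 12.19 and 12.29 in vehicle rats (-0.32 ± 0.1, adjusted p = 0.0229). No rat of one group overlapped the other in either gene. Against all 15 vehicle rats neither was called, with -0.26 for Hspe1 and -0.22 for Hspd1, and the Hspd1 call also ended without rat4, rat6 or rat38 and with only these groups in the fit (adjusted p = 0.0937). Leukocyte markers had a summed level of 9.57 to 9.78 in nevirapine rats, against 10.39 to 10.52 in vehicle rats, with 4 of 9 called lower, and their part was not tested.

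At 48 h the called changes of all 3 treatments were rises, and the vehicle rats of that time were low. With vehicle at 48 h as control, Hspe1 was higher in galactosamine (0.62 ± 0.13), nevirapine (0.62 ± 0.12) and combination livers (0.65 ± 0.12), with limma adjusted p of 0.000317, 0.000453 and 0.000175. Hspe1 had 11.9 and 12.09 in galactosamine rats, 11.94, 11.97 and 12.09 in nevirapine rats and 12.47, 12.01 and 11.61 in combination rats, against 11.48, 11.36 and 11.29 in vehicle rats. In each of these comparisons every treated rat lay above every vehicle rat, but the 3 comparisons share those vehicle rats. Hsph1 was also called in nevirapine (0.75 ± 0.19) and combination livers (0.72 ± 0.19), Hspd1 in nevirapine (0.28 ± 0.1) and combination livers (0.35 ± 0.1), Hspb1 in nevirapine livers (1.5 ± 0.46), and Dnajb1 (0.72 ± 0.26) and Bag3 (0.84 ± 0.26) in galactosamine livers. The share of all genes called was 39.4% for galactosamine (24.9% higher), 17.4% for nevirapine (11% higher) and 15.9% for the combination (10.2% higher). Leukocyte markers summed to 12.13 to 12.14 in galactosamine, 9.92 to 10.29 in nevirapine and 11.75 to 12.49 in combination rats, against 9.98 to 11.1 in vehicle rats at 48 h, with 6 of 9 called higher in galactosamine and in combination livers and 1 lower in nevirapine livers. Endothelial markers summed to 10.56 to 10.63, 10.53 to 10.59 and 10.39 to 10.75, against 9.7 to 10.33 in vehicle rats, and the part of both lists was not tested. With only its groups in the fit, none of the 3 combination calls held (adjusted p of 0.108 for Hsph1, 0.264 for Hspd1 and 0.119 for Hspe1).

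Vehicle livers at 48 h had the lowest mean of the 5 vehicle groups in all 6 genes. How many of all genes were lowest there, or lay apart from the other vehicle rats, was not counted. The low values can therefore not be called particular to these 6. For Hsph1 they gave 8.71, 8.65 and 8.69, whereas the lowest of the other vehicle rats gave 9.25. For Hspe1 that rat gave 11.99 and for Hspd1 12.03, where the 48 h vehicle rats reached 11.48 and 11.86 at most. Only Hspb1 overlapped, with 7.1, 7.75 and 8.16 at 48 h and 8.01 in the lowest of the other vehicle rats. Against all 15 vehicle rats Hspe1 changed by -0.06, -0.05 and -0.02 in galactosamine, nevirapine and combination livers, and Hsph1 by -0.24 in nevirapine and -0.27 in combination livers. None of the 10 rises at 48 h was then called, and Hspb1 in galactosamine livers, at -0.37 ± 0.51 against vehicle at 48 h, was called lower at -1.56 (limma adjusted p = 0.0115). The Gapdh 3′ minus 5′ difference was 0.483 to 0.744 in vehicle rats at 48 h, the highest group mean of all, against 0.13 to 0.145 in galactosamine, 0.014 to 0.86 in nevirapine and 0.293 to 0.348 in combination rats, and with it as a covariate only Hspd1 in nevirapine livers lost its call (adjusted p = 0.0778). Among single rats, rat70 ended the calls of Hsph1 and Hspd1 in the combination, rat27 that of Bag3, and rat12, rat26 or rat27 that of Dnajb1 in galactosamine livers; Hspb1 in nevirapine livers needed rat10, rat41 and rat42, and Hspd1 there each of the 6 rats.

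The change of effect between 24 h and 48 h carries those low vehicle values. For galactosamine it was 2.39 ± 0.69 for Hspb1, 0.83 ± 0.28 for Hsph1 and 1.09 ± 0.18 for Hspe1 (limma adjusted p of 0.00533, 0.0165 and 6.35e-06), where 36.4% of all genes were called and 19.3% were called higher. For the combination it was 2.1 ± 0.65 for Hspb1, 0.8 ± 0.26 for Hsph1 and 0.93 ± 0.17 for Hspe1 (limma adjusted p of 0.0229, 0.035 and 0.000178), where 14.6% of all genes were called and 7.3% were called higher. The calls of Hspb1 and Hsph1 ended without rat27 for galactosamine and, for the combination, with only these groups in the fit and without rat31, rat63 and rat70 (adjusted p = 0.0547 and 0.0558), whereas those of Hspe1 held in both.

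**Figure D4:**
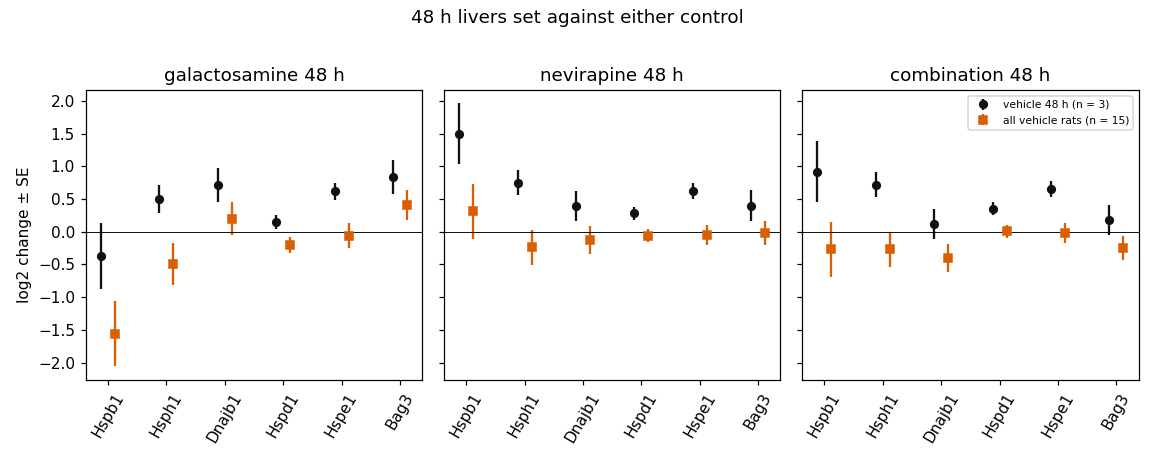
Log2 change (vertical axis, ± SE of the fit) of each gene (horizontal axis) at 48 h of galactosamine, nevirapine and the combination, against 3 vehicle rats at 48 h (circles) or all 15 vehicle rats (squares). Hspe1 is at 0.62, 0.62 and 0.65 with the first control and at -0.06, -0.05 and -0.02 with the second.

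At the last times no gene of the 6 was called against its own vehicle group. Changes lay between -0.37 (Dnajb1) and 0 at 8 d of galactosamine, where 0.0352% of all genes were called, and between 0.02 and 0.37 at 15 d of nevirapine, where 13.9% were. The combination at 8 d, the group in which fibrosis occurred, differed from vehicle at 15 d by -0.16 (Dnajb1) to 0.18 (Hspd1), where 24.8% of all genes were called. Hspb1 had 8.95, 9.26 and 8.03 in combination rats, against 8.98, 9.25 and 8.01 in vehicle rats at 15 d, a change of 0 ± 0.46. For Hsph1 this depended on the vehicle group: combination rats gave 9.74, 9.55 and 9.38, against 9.63, 9.75 and 9.64 in vehicle rats at 15 d but 10.21, 10.53 and 10.42 in those at 8 d. With vehicle at 8 d as control Hsph1 was called lower, at -0.83 ± 0.19 (limma adjusted p = 0.00199) instead of -0.12 ± 0.19, and the other 5 genes, at -0.51 to -0.11, were not called. Against nevirapine at 15 d the changes were -0.47 (Hsph1, adjusted p = 0.091) to 0.04, where 12.4% of all genes were called by limma. As a difference of effects on their own vehicle groups, combination and galactosamine at 8 d differed by -0.01 to 0.29, with 11.2% of all genes called, and as a direct difference Hsph1 was called lower in combination livers (-0.67 ± 0.19, adjusted p = 0.0132). With only their groups in the fit, Hsph1 (0.36, adjusted p = 0.00942) and Bag3 (0.33, adjusted p = 0.0104) were called higher at 15 d of nevirapine and Hsph1 lower in the combination than in nevirapine livers (-0.47, adjusted p = 0.0246). A change of the size of the standard errors, 0.1 to 0.46 for single comparisons and 0.14 to 0.65 for the difference of effects, would not be detectable with these numbers of rats.

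Other genes of the chaperone network were read from lists, given here by their counts beside the median of all genes. At 24 h of galactosamine all 8 subunits of the cytosolic chaperonin CCT, which folds actin and tubulin, were higher, by 0.45 to 1.05, with a median of 0.68, against -0.07 over all genes, of which 58.8% were called and 30.2% called higher. Cct7 (1.05 ± 0.12), Cct5 (0.92 ± 0.12) and Cct4 (0.82 ± 0.12) rose most. At 24 h of the combination all 8 were higher too, with a median of 0.59 against -0.01 over all genes, of which 36.7% were called and 20.7% called higher. After nevirapine at 24 h none of the 8 was called, where 11.2% of all genes were. At 3 h none was called in galactosamine livers, where 32.9% of all genes were called. In combination livers at 3 h 1 was lower, where 17.4% of all genes were called lower. Without rat24 the galactosamine count was 7, without rat4 the combination count was 7, and it was 7 for galactosamine with all probe sets of a gene averaged.

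Of 13 cochaperones of Hsp70 and Hsp90, 9 were higher and 1 lower at 24 h of galactosamine, with a median of 0.36, where 30.2% of all genes were called higher and 28.5% lower. They included Fkbp5 (1.23 ± 0.29), an Hsp90 partner of steroid receptors, Bag2 (0.99 ± 0.18) and Hspbp1 (0.64 ± 0.17). At 3 h of the combination 6 of the 13 were lower and 1 higher, where 17.4% of all genes were called lower and 15.2% higher, among them Fkbp4 (-1.04 ± 0.18) and Stip1 (-1.02 ± 0.2), which joins Hsp70 to Hsp90. Of 17 other cytosolic heat shock genes measured, 5 were higher and 4 lower at 24 h of galactosamine, shares close to those of all genes. Hspb8, a small heat shock protein that binds Bag3, rose by 2.14 ± 0.25 and Chordc1, an Hsp90 partner, by 1.17 ± 0.23. Hspb6, another small heat shock protein, was at least 2.87-fold lower, its galactosamine mean of 4.35 lying under the background level of 4.37. At 3 h of the combination 8 of the 17 were lower, where 17.4% of all genes were called lower, and none was higher, with the inducible Hsp70 gene Hspa1a at -1.85 ± 0.48.

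Of the 3 regulators 2 were higher and 1 was lower at 24 h of galactosamine, where 30.2% of all genes were called higher and 28.5% lower. Hsf1 itself was higher, with a mean of 7.93 in galactosamine livers, against 6.07 in vehicle livers (1.87 ± 0.12, limma adjusted p = 7.58e-16). It was higher at 24 h of the combination as well (0.78 ± 0.12) and lower at 3 h of it (-0.54 ± 0.12). Set against galactosamine at 24 h, the combination had lower Hsf1 (-1.09 ± 0.12) and lower Hspb8 (-1.04 ± 0.25), beside the lower Dnajb1 and Bag3 given above. In that comparison 21.6% of all genes were called lower and 16.2% higher, and the Bag3 call hung on single rats. Hspb1 went the other way there (1.58 ± 0.46), as did Hspb6. The rise of Hspb6 was at least 1.72-fold, from a galactosamine mean under background. A link of these genes to Hsf1 was not tested. Hsf2 was also higher at 24 h of galactosamine (0.45 ± 0.18, adjusted p = 0.0337), a call lost with averaged probe sets and without rat4, rat22, rat23 or rat24, and Hsbp1, which binds Hsf1, was lower (-0.34 ± 0.09, adjusted p = 0.00108). At 3 h of galactosamine Hsf1 carried no call, while Hsf2 was lower (-0.79 ± 0.18) and Hsbp1 higher (0.27 ± 0.09, adjusted p = 0.0147), the Hsbp1 call being lost with the Gapdh covariate and without rat1 or rat17. Exceptions aside, the single genes named from these lists were picked because they kept direction and call in every alternative and without each rat. They were picked after their values were seen. The exceptions are Hsf2 at 24 h, Hsbp1 at 3 h and Hspb6 in the combination against galactosamine.

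**Figure D5:**
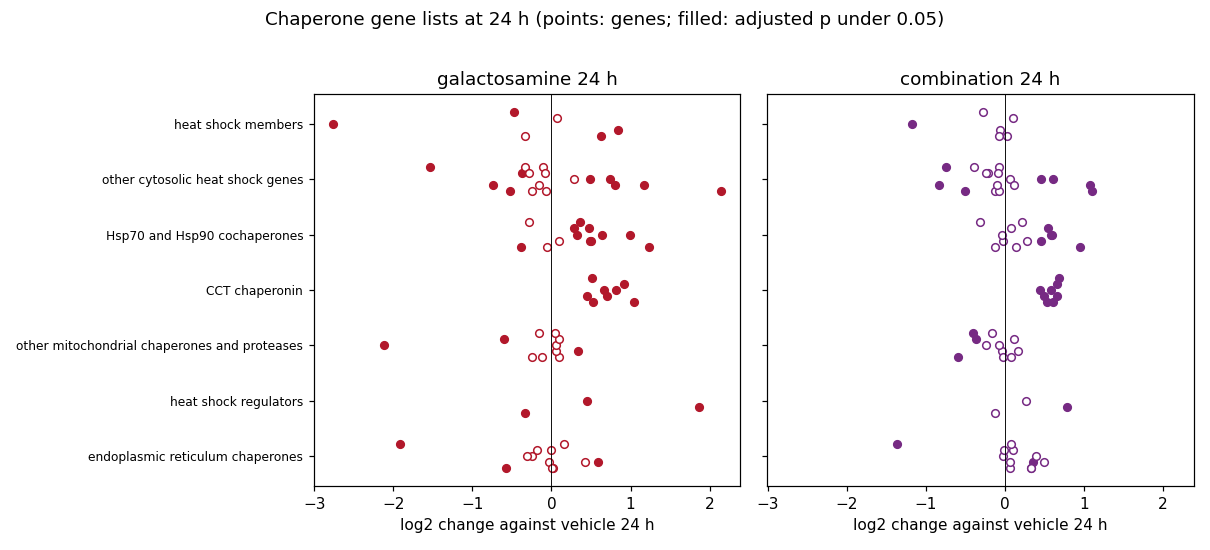
Log2 change against vehicle at 24 h (horizontal axis) of each gene (points) in the 6 heat shock genes and 6 lists of chaperone genes (vertical axis), for galactosamine and the combination; filled points have an adjusted p under 0.05. All 8 CCT points are filled and right of 0 in both, with medians of 0.68 and 0.59, and Hspb1 is the leftmost of the heat shock members at -2.76 and -1.18.

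The genes whose 17 group means were most like the mean of the 4 measured cytosolic genes (each gene centred on its own mean) were Atpsckmt (r = 0.867), Dnaja1 (r = 0.856), Hspa1a (r = 0.835), Adgra3 (r = 0.811) and Ankrd44 (r = 0.771). Dnaja1 is a cytosolic J-domain protein and Hspa1a an inducible Hsp70. The 4 averaged genes did not share 1 course over the groups. Hspb1 had r of -0.28 with Dnajb1 and -0.31 with Bag3, and Hsph1 had 0.11 and 0.01 with them. Likeness to their mean is therefore not likeness to each of them. Those most like the mean of Hspd1 and Hspe1 were Hsp90ab1 (r = 0.859), Ahsa1 (r = 0.85), Coq3 (r = 0.808), Atpsckmt (r = 0.751) and Cds2 (r = 0.744). Hsp90ab1 is the constitutive cytosolic Hsp90 and Ahsa1 its ATPase activator. These are likenesses over 17 group means of one table, picked as the highest of all genes.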

How the data were processed

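RNA levels in 50 rat livers were deposited by the authors as log2 probe set signals. Per the submitters' processing notes the tools were RMA and limma, with versions not given in the sources used here. The 31099 probe sets were used as deposited. Symbols came from the platform annotation: 20826 probe sets had 1 symbol, 436 had several and 9780 had none, and 57 controls were left out. Each gene was read from its brightest probe set over all 50 arrays. Limma 3.58.1 in R 4.3.3 fitted 17 group means to all 50 arrays, with Benjamini-Hochberg adjustment over 14217 genes in each of 22 comparisons and a threshold of 0.05; every adjusted p in the text is from this fit or its named alternative. Galactosamine and combination at 8 d were compared as effects on vehicle at 8 d and 15 d. The members, lists and tests were chosen with earlier results of these data known. All measured members are named, and per list and comparison up to 3 called genes with the largest change. Of those, the text takes genes that kept their call throughout, called regulators, and Hspb6 in the combination against galactosamine at 24 h. This choice was made after their values were seen. The background level, 4.37, is the highest mean of 27 Bacillus control probe sets. Promoters are from RefSeq (GRCr8). Scripts were tested on simulated data. Alternatives were only the compared groups in the fit, another prior, a filter on dim genes, the mean of all probe sets, cyclic loess, array weights, the GAPDH covariate, 3 arrays left out, all 15 vehicle rats as control, another vehicle group at 8 d, and each rat left out in turn. Python 3.11.15, numpy 2.4.6, pandas 2.3.3 and matplotlib 3.10.9 were used.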

Additional observations from a re-analysis of the deposited data

Results flagged for a closer look

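The effects of a treatment at 2 times, each against its own vehicle rats, differed by a direct limma test for 14 gene and time pairs. For galactosamine at 24 h against 3 h the differences were 2.57 for Dnajb1, 2.48 for Bag3, -3.04 for Hspb1 and -0.45 for Hspe1 on the log2 scale. For galactosamine at 48 h against 24 h they were 2.39 for Hspb1, 1.09 for Hspe1 and 0.83 for Hsph1; without rat27 those of Hspb1 and Hsph1 were 1.64 and 0.56 and not called. For the combination at 24 h against 3 h they were 1.2 for Dnajb1, 1.16 for Bag3, 1.12 for Hsph1 and 0.45 for Hspd1. For the combination at 48 h against 24 h they were 2.1 for Hspb1, 0.93 for Hspe1 and 0.8 for Hsph1, where leaving out any of 6 rats ended the Hspb1 call and any of 8 the Hsph1 call. Differences that involve 48 h contain the low vehicle values of that time. The galactosamine and combination differences share their vehicle rats. Groups of 2 or 3 rats were too small for a search for single outlying rats.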

How the results depend on the processing

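The 51 called changes of the 6 genes were recomputed under each alternative. 15 of them kept direction and call under every one and without each rat. Over 383 changes with 1 rat left out, 304 kept their call, 79 lost it and none was reversed; over 435 under the other alternatives, 372 kept it, 56 lost it and 7 were reversed. Calls lost by alternative were 20 of 27 with all 15 vehicle rats as control, 17 of 51 with only the compared groups in the fit, 8 under cyclic loess, 6 without rat31, rat63 and rat70, 4 with the GAPDH covariate, 3 with array weights, 3 with averaged probe sets, 2 with the other prior and 0 with the dim filter. The reversed values were, with all 15 vehicle rats, Hspe1 at -0.06, -0.05 and -0.02 (galactosamine, nevirapine and combination, 48 h), Hsph1 at -0.24 and -0.27 (nevirapine and combination, 48 h) and Hspd1 at -0.06 (nevirapine, 48 h), and under cyclic loess Hspe1 at 0.07 (galactosamine, 24 h against 3 h). Of 84 companion gene changes under 1231 settings, 1088 kept their call, 143 lost it and 0 were reversed. The causes were not tested.

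Counts of called genes among the 6 moved as follows. With all 15 vehicle rats the count was 1 for galactosamine at 48 h, 2 for the combination at 3 h, and 0 for nevirapine at 3 h, 24 h and 48 h and the combination at 24 h and 48 h. With only the compared groups it was 0 for nevirapine at 3 h and the combination at 24 h and 48 h, 1 for nevirapine at 24 h, 2 for nevirapine at 15 d, 2 and 1 for combination against galactosamine at 3 h and 24 h, 1 for the combination at 8 d against nevirapine, and 2 and 1 for the combination effect at 24 h against 3 h and at 48 h against 24 h. Without rat31, rat63 and rat70 it was 0 for nevirapine at 3 h, 2 for the combination at 24 h, 2 for combination against galactosamine at 48 h, and 1 each for the combination at 8 d against nevirapine and the combination effect at 48 h against 24 h. With array weights it was 2 for nevirapine at 15 d, 0 for the combination at 24 h, 3 for combination against galactosamine at 3 h and 1 for the combination at 8 d against vehicle and against nevirapine. For the combination at 24 h it was 0 with the other prior and 2 under the dim filter, cyclic loess and the GAPDH covariate. For combination against galactosamine at 48 h it was 2 under the dim filter and 0 with the other prior, averaged probe sets or the GAPDH covariate, and at 3 h 3 under cyclic loess. Where the 8 d vehicle rats served as the combination's control it was 1 against vehicle and 1 against galactosamine. No paired analysis was possible because each rat number occurs in 1 group only, so there was no replicate block to fit.

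With 1 rat left out, the count ran from 1 to 3 for galactosamine at 48 h, 0 to 2, 1 to 2 and 2 to 3 for nevirapine at 3 h, 24 h and 48 h, 0 to 1 and 1 to 3 for the combination at 24 h and 48 h, 2 to 4 and 0 to 2 for combination against galactosamine at 3 h and 48 h, 1 to 3 and 1 to 4 for the galactosamine and combination effects at 48 h against 24 h, and 0 to 1 for vehicle at 3 h against 24 h. Over all genes, called counts moved by more than 1.5 times somewhere in 17 comparisons: 5600 ran from 3708 to 7655 and 5 from 0 to 718 for galactosamine at 48 h and 8 d; 2142 from 1279 to 3309, 1589 from 924 to 2499, 2472 from 1359 to 4652 and 1978 from 1147 to 5018 for nevirapine at 3 h, 24 h, 48 h and 15 d; 4627 from 2138 to 5143, 2265 from 374 to 2526 and 3521 from 1763 to 5557 for the combination at 3 h, 48 h and 8 d. Against galactosamine, 2518 ran from 757 to 2631, 5371 from 2739 to 5837, 4163 from 1772 to 5287 and 1594 from 931 to 3956 at 3 h, 24 h, 48 h and 8 d. The combination at 8 d against nevirapine ran from 1023 to 3547 around 1763, its effect at 24 h against 3 h from 2703 to 4885 around 4074 and at 48 h against 24 h from 830 to 2797 around 2080, and vehicle at 3 h against 24 h from 32 to 912 around 169.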

Other observations

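Among chaperones and proteases of other compartments, the counts of called genes at 24 h of galactosamine lay below the shares of all genes, 30.2% higher and 28.5% lower. Clpx, the unfoldase of a mitochondrial matrix protease, was 7.55 on average in galactosamine livers at 24 h, against 9.66 in vehicle livers (-2.12 ± 0.15), and 9.59 in combination livers at that time, which put the combination 2.04 ± 0.15 above galactosamine. Of the 11 other mitochondrial chaperones and proteases, 1 was higher and 2 were lower at 24 h of galactosamine, the second fall being that of the J-domain protein Dnaja3 (-0.6 ± 0.11). Of 12 chaperones of the endoplasmic reticulum, 1 was higher and 2 were lower at that time: Pdia4, a disulfide isomerase, fell by 1.91 ± 0.22, while Hspa5 (BiP) rose by 0.59 ± 0.14. Pdia4 was lower at 24 h of the combination as well (-1.37 ± 0.22). At 3 h of galactosamine 3 of the 12 were called, all of them higher. The share of all genes called in either direction was 32.9%, and 18% were called lower. Creld2 was at 0.91 ± 0.22 and Sdf2l1 at 0.79 ± 0.21. Set against galactosamine at 3 h, the combination had lower Creld2 (-0.92 ± 0.22).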
